A study of Mus musculus with 12 samples.

Results

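To compare OTII cells primed with and without IL-6 at the later of both sampling times, the 3 libraries from Il6-/- recipients on Day 5 were set against the 3 libraries from WT recipients on Day 5, chosen by the genotype and day in the labels. These are 6 of the 12 libraries of the series, and the other 6 hold the same genotypes on Day 3. OTII cells are CD4+ T cells with a transgenic TCR for a peptide of ovalbumin (OVA). They were transferred into B6 (WT) or Il6-/- mice (B6.129S2-IL-6tm1Kopf/J, in which the deletion is in the germline of the recipient and not in the transferred cells), and all recipients received HDM extract that carried LPS, together with LPS-free OVA, through the nose. The donor cells were sorted by antibodies to B220, CD4, CD44 and CD45.1. The tissue label reads blood, whereas the design text names the mediastinal lymph nodes (mLN), and that text also says that the manuscript counts its days from 0 rather than 1. Day 5 is used here as in the labels. The number of animals behind a library is not given in the sources used here, so the p-values measure the spread between libraries, which may be technical.

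IL-6 binds IL-6Rα and gp130 and acts through JAK kinases and STAT3, which induces the feedback inhibitor SOCS3 and, together with TGF-β, favors Th17 differentiation. IL-2 acts through STAT5, which induces its own receptor chain CD25 (Il2ra), the feedback inhibitor CIS (Cish) and survival genes, and favors Th2 and regulatory T cells over Th17 and Tfh cells. In recipients without Il6, the transferred T cells can still receive the other cytokines that use gp130 or STAT3, such as IL-21 and IL-27.

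Between 16125947 and 20571565 reads per Day 5 library were counted on genes, which was 52.5% to 56.7% of its reads. A count of 3, taken as the floor of detection, corresponded to 0.141 to 0.176 CPM in these libraries, where CPM gives the reads of a gene relative to the total of its library. All CPM values are scaled by TMM factors, which lay between 1.01 and 1.06 on Day 5, and CPM values of different genes are not compared, because they are not per length. Il6 itself had 0 to 5 counts in each Day 5 library of either genotype, and since it is deleted in the host, its counts in donor cells do not check the labels. Cd4, Cd3e and Trac were detected in every library, as a CD4+ T cell sample would have them. Cd8a was at 0 to 0.208 CPM, whereas Cd8b1 was at 56.5 to 74.2 CPM in the same libraries. Among B cell genes, Ms4a1 was at 0 in 4 of the 6 libraries, with Ighm at 426 to 553 CPM. The natural killer genes Ncr1, Klra4, Klra7, Klra8 and Klra9 were at 0 in all 6 libraries. Myeloid markers summed to 127 to 257 CPM in WT and 133 to 171 CPM in Il6-/- libraries, with S100a8 at 0.0586 to 46.5 CPM, and lung epithelial markers to 3.53 to 31.7 and 8.42 to 14.8 CPM. The values are those of a bulk sample, in which fewer cells of a kind and less RNA per cell cannot be told apart.

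Of 13570 genes tested, 155 (1.14%) passed an FDR of 0.05 in edgeR together with a change of at least 2-fold and were called. The cells from Il6-/- recipients had 44 genes called higher (0.324%) and 111 called lower (0.818%). Without the fold limit, 172 genes were higher (1.27%) and 454 lower (3.35%). Il17rb, a subunit of the IL-25 receptor, had the lowest FDR of all genes and was higher in Il6-/- recipients. The called changes were mostly modest, since 19 of the 44 higher and 90 of the 111 lower genes lay between 1 and 1.5 in size on the log2 scale, and the median log2 fold change of Il6-/- relative to WT (log2FC) was 1.54 and −1.21. The genes called higher were expressed at a low level, with a median of 3.53 CPM in WT and 8.61 CPM in Il6-/- libraries, and the genes called lower at a median of 22.5 and 9.30 CPM. Over all genes tested the medians were 20.0 and 19.6 CPM. The libraries of both genotypes did not overlap for 42 of the 44 and 109 of the 111 genes. This was so for 8.65% and 11.0% of all genes tested in the higher and the lower direction. The genes called lower had a median GC content of 51.1%, against 48.7% both for the genes called higher and for all genes tested. The annotation gave a median of 8 exons for the genes called higher, 7 for those called lower and 8 for all genes tested, with a union exon length of 5856, 5163 and 5927 bp. Reads were counted without strand, and 18 of the 42 annotated genes called higher and 40 of the 106 called lower shared exon sequence with another gene, against 44.8% of all annotated genes tested. HTSeq sets reads that it cannot assign to 1 gene aside as ambiguous, and whether the annotation used for counting holds the same overlaps was not examined.

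**Figure D1:**
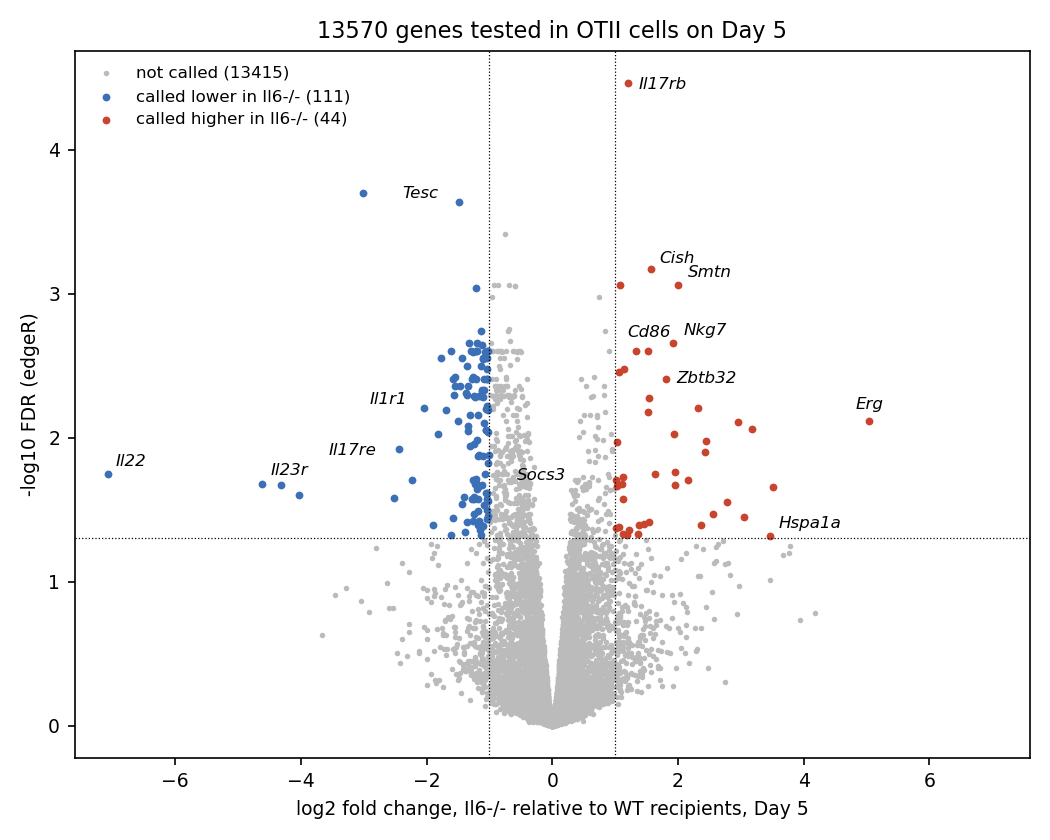
Log2 fold change on Day 5 (x axis, Il6-/- relative to WT) against −log10 of the edgeR FDR (y axis) for the 13570 genes tested, 1 point per gene. Dotted lines mark a 2-fold change and an FDR of 0.05, and the 111 genes called lower (blue) outnumber the 44 called higher (red).

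The plot of log2FC against FDR shows that the left side is more densely filled past the thresholds than the right. Single libraries weighed on the number of calls. Leaving out WT replicate 1, WT replicate 2 or Il6-/- replicate 2 left 73, 81 and 82 genes called, and leaving out WT replicate 3 or Il6-/- replicate 1 left 299 and 287. Genes called higher moved by more than 1.5 times also without Il6-/- replicate 3, to 28. In all 12 fits that each left out 1 of the 12 libraries, every one of the 155 genes kept its direction, and 84 to 155 of them kept an FDR under 0.05. With the replicate number as a block, 217 genes were called, 90 of them higher and 127 lower, and these included 149 of the 155.

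Genes of the Th17 program were lower in cells from Il6-/- recipients. Of 12 tested members of a Th17 list, 6 were lower and none higher, against 3.35% and 1.27% of all genes tested. The median log2FC of the list was −1.15, against 0.01 over all genes tested. The median stays the same with Il22 at its lower bound. Il1r1, the IL-1 receptor that Th17 cells use to respond to IL-1β, was at 12.4, 26.1 and 21.2 CPM (WT) and 1.43, 6.04 and 7.03 CPM (Il6-/-) (log2FC −2.04, SE 0.38, FDR = 0.0062). Its groups did not overlap, although WT replicate 1 and Il6-/- replicate 1 were each the lowest of their group.

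Il23r, the IL-23 receptor subunit, was detected above the floor in the 3 WT libraries, at 0.204, 0.623 and 0.940 CPM, and at 0, 0 and 0.0521 CPM in the Il6-/- libraries. This corresponded to 36 counts against 1 and a ratio of 33.0 (95% interval 5.56 to 1340, exact, for counting error only). The FDR was 0.021, and FDR 0.052 to 0.092 with 1 library left out, namely WT replicate 2 or Il6-/- replicates 2 and 3. Il22, an effector cytokine of Th17 cells, was at 1.73, 0.571 and 0.235 CPM in WT libraries and at 0 in all Il6-/- libraries. With 50 counts against 0, it was at least 5.17-fold lower when 3 counts per library are taken as the floor (FDR = 0.018), with an FDR 0.052 to 0.058 with 1 library left out, namely WT replicate 1 or Il6-/- replicates 2 and 3. Both genes are near the limit of these libraries, so their levels rest on few reads. Il17re, a receptor subunit for IL-17C, was at 1.27, 1.14 and 1.22 CPM (WT) and 0.212, 0.293 and 0.156 CPM (Il6-/-) (log2FC −2.44, FDR = 0.012, FDR = 0.058 without Il6-/- replicate 3). Batf, an AP-1 factor needed for Th17 differentiation, passed the test at a log2FC of −0.26 (FDR = 0.048, FDR 0.060 to 0.21 with 1 library left out, namely WT replicates 1, 2 and 3, Il6-/- replicates 1 and 2 or 6 of the 6 Day 3 libraries). The members Il17f, Rora, Il21, Stat3, Ahr and Ccr6 did not pass. Il17f had a log2FC of −3.28 with an FDR of 0.11. Il17a had 1 count over the 3 WT libraries and 0 in the Il6-/- libraries and could not be tested. Leaving out 1 library left between 3 (without Il6-/- replicate 2) and 5 of the 12 members lower, and DESeq2 called 3, with no adjusted p for Il22, Il23r and Il17re.

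Cd163l1, a scavenger receptor known from γδ T cells, was lower, at 1.12, 3.01 and 0.705 CPM (WT) and 0, 0.293 and 0 CPM (Il6-/-) (log2FC −4.04, FDR = 0.025, FDR 0.088 to 0.11 with 1 library left out, namely WT replicate 2 or Il6-/- replicate 3). The other tested γδ markers did not pass. Trdc, the constant segment of the TCR δ chain, was at 5.45, 5.56 and 3.53 CPM (WT) and 5.40, 5.16 and 3.85 CPM (Il6-/-) (log2FC −0.01, FDR = 0.99), and Sox13 had a log2FC of −0.39 (FDR = 0.81). Blk was at 0 in 5 of the 6 libraries. The list of γδ markers summed to 5.64 to 9.61 CPM in WT and 4.22 to 6.86 CPM in Il6-/- libraries, and 1 of its 3 tested members was lower. The part of other cells in the Th17 result was not tested.

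A wider list of genes induced by IL-6 and STAT3 held 7 lower and no higher members among 17 tested, with a median log2FC of −0.16. Of all genes tested, 3.35% were lower and 1.27% higher. Beside Il1r1, Il22, Il23r and Batf, the lower members included Socs3 and Bcl3. Bcl3, an atypical IκB protein that acts in the nucleus, was at 46.3, 44.1 and 21.2 CPM (WT) and 17.9, 13.5 and 15.6 CPM (Il6-/-) (log2FC −1.24, SE 0.25, FDR = 0.011). Its WT replicate 3 lay well below the other 2 WT libraries and closer to the Il6-/- libraries, without reaching them, and the FDR was above 0.05 in 3 fits (FDR 0.055 to 0.061 with 1 library left out, namely WT replicates 1 and 2 or Il6-/- replicate 2). Beside Il17f, the members Pim1, Junb, Maf, Rora, Il6st, Il21, Stat3, Ccr6 and Il10 did not pass, with log2FC between −0.16 and 1.01. Stat3 itself did not pass, with overlapping groups at 366, 373 and 369 CPM (WT) and 386, 379 and 345 CPM (Il6-/-) (log2FC 0.00, FDR = 0.99).

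Among receptors and JAK-STAT components, Il6ra, the IL-6-binding receptor chain, was lower in Il6-/- recipients, at 185, 182 and 168 CPM (WT) and 139.9, 116 and 135 CPM (Il6-/-) (log2FC −0.45, SE 0.09, FDR = 0.0096). The groups did not overlap, and the FDR was above 0.05 in 1 fit (FDR = 0.056 without Il6-/- replicate 2). Il6st, the shared chain gp130, had a log2FC of −0.08 (FDR = 0.77). Il10ra, the IL-10-binding chain, was higher, at 33.2, 42.7 and 38.1 CPM (WT) and 58.2, 67.4 and 56.4 CPM (Il6-/-) (log2FC 0.67, SE 0.14, FDR = 0.012, FDR 0.050 to 0.071 with 1 library left out, namely WT replicate 1 or Il6-/- replicate 2). Il12rb1, the chain shared by the IL-12 and IL-23 receptors, and Tyk2, the kinase bound to it, were higher by 0.51 and 0.36 on the log2 scale (FDR = 0.047 and 0.045). Both calls were weak, since they held in 3 and 1 of the 12 fits that left out 1 library. In all, 3 of the 16 tested members were higher and 2 lower, against 1.27% and 3.35% of all genes tested.

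The SOCS family, whose members are induced by cytokine signals and restrain them, split by member. Cish, a target of STAT5, was higher in Il6-/- recipients, at 8.86, 10.3 and 7.66 CPM (WT) and 22.4, 32.2 and 25.5 CPM (Il6-/-) (log2FC 1.58, SE 0.18, FDR = 0.00067). Socs3, a target of STAT3, was lower, at 22.1, 25.1 and 20.3 CPM (WT) and 14.1, 10.3 and 12.9 CPM (Il6-/-) (log2FC −0.86, SE 0.18, FDR = 0.012). Socs1, which inhibits JAK kinases and is induced by interferon-γ and by γc cytokines, was also lower, at 38.4, 46.6 and 29.2 CPM (WT) and 18.5, 16.9 and 20.4 CPM (Il6-/-) (log2FC −1.03, SE 0.16, FDR = 0.0028). None of the 3 genes had overlapping groups. Cish and Socs1 kept an FDR under 0.05 in each of the 12 fits that left out 1 library, and Socs3 did not (FDR 0.063 to 0.068 with 1 library left out, namely WT replicate 2 or Il6-/- replicate 2). Socs2, Socs4, Socs5, Socs6 and Socs7 did not pass the test. On GRCm39, Cish lies on chromosome 9, 107173225 to 107179983, plus strand, Socs3 on chromosome 11, 117856905 to 117860898, minus strand and Socs1 on chromosome 16, 10600104 to 10603875, minus strand, and none of the 3 shares exon sequence with another annotated gene.

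STAT3 and STAT5 bind the palindrome TTCNNNGAA, which reads alike on both strands and is shown here because SOCS genes and others that changed are known targets of STAT factors. It was searched for in the 250 bases before the RefSeq start sites of GRCm38.p6. At least 1 match was found for 5 of 38 genes called higher that had a promoter window (13.2%), for 4 of 96 called lower (4.17%) and for 7.19% of 10397 genes tested. These shares are descriptions without a test. Socs3 held 1 match, 154 bases before the start, and no match was listed for Cish and Socs1. A gene without a promoter window would also have none listed. Sites were listed only for genes that passed the edgeR test on Day 5 and were chosen by the naming rules given below. Other genes described here may hold matches that are not listed. Among the other genes with listed sites, those higher in Il6-/- libraries with 1 match were Chdh, Nkg7, Tnfrsf1b, Tgtp1, Lig1 and Akap6. Irf8 and Lta, also higher, held 2 matches each. Those lower in Il6-/- libraries with 1 match were Tnfrsf25, Oas1a and Cd3d, beside Socs3. None of these lower genes changed by 2-fold, so they are not the ones counted above among the genes called lower. A choice of these sites from both directions is shown, and for Irf8 and Lta the match nearer to the start. The sites are printed 5′ to 3′ on the strand of the gene, with the motif in capitals, for Socs3 (chr11:117969502-117969530, minus strand), Chdh (chr14:30021137-30021165, plus strand), Nkg7 (chr7:43436908-43436936, plus strand), Irf8 (chr8:120736195-120736223, plus strand), Lta (chr17:35205349-35205377, minus strand) and Tnfrsf25 (chr4:152116317-152116345, plus strand).
Socs3: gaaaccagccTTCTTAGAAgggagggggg
Chdh: ctttcatcccTTCTGGGAAtacctacagg
Nkg7: ccccaaggtcTTCCAGGAAaccagttgtc
Irf8: aagagagcgcTTCAGAGAAggcggatttg
Lta: ccgactccctTTCCCAGAAcgcagtagtc
Tnfrsf25: gggcctccacTTCTCAGAAggcatggctg
A match is a run of letters and does not show that a factor was bound there in these cells.

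Of 29 tested genes induced by IL-2, 5 were higher (Cish, Bcl2l1, Il2rb, Lta and Tnfrsf8) and none lower. Bcl2l1, which encodes the survival protein BCL-XL, was at 45.6, 51.4 and 66.5 CPM (WT) and 79.3, 100.2 and 82.5 CPM (Il6-/-) (log2FC 0.68, SE 0.13, FDR = 0.0096). Its groups did not overlap, with WT replicate 3 the highest of WT and nearest to the Il6-/- libraries, and its FDR rose above the threshold in 2 fits (FDR 0.052 to 0.055 with 1 library left out, namely WT replicates 1 and 2). Lta, the cytokine lymphotoxin α, was at 64.0, 53.6 and 62.8 CPM (WT) and 83.3, 74.4 and 78.2 CPM (Il6-/-) (log2FC 0.39, FDR = 0.037), and Tnfrsf8, the TNF receptor family member CD30, had a log2FC of 1.37 (FDR = 0.046). The call of Lta held in 4 of the 12 fits that left out 1 library, and that of Il2rb, a subunit of the IL-2 and IL-15 receptors, in 3. With the replicate block, 8 members were higher, with Il2ra, Bhlhe40 and Tnfrsf4 added, and Ikzf2 was lower. Over all genes tested, 1.27% were higher and 3.35% lower without the block, and 5.43% and 6.30% with it. Without the block, leaving out 1 library gave 1 higher member (without WT replicate 1) to 7 (without WT replicate 3). Il2ra passed with the block (FDR = 0.0089) but not without it (FDR = 0.084). It passed in 1 of the 12 fits that left out 1 library, where its FDR reached 0.28. Il2ra had the highest value in Il6-/- replicates 1 and 2, whereas Il6-/- replicate 3 lay within the range of WT, so its groups overlapped. Of 12 genes repressed by IL-2, Il6ra and Foxo1 were lower and none was higher.

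**Figure D2:**
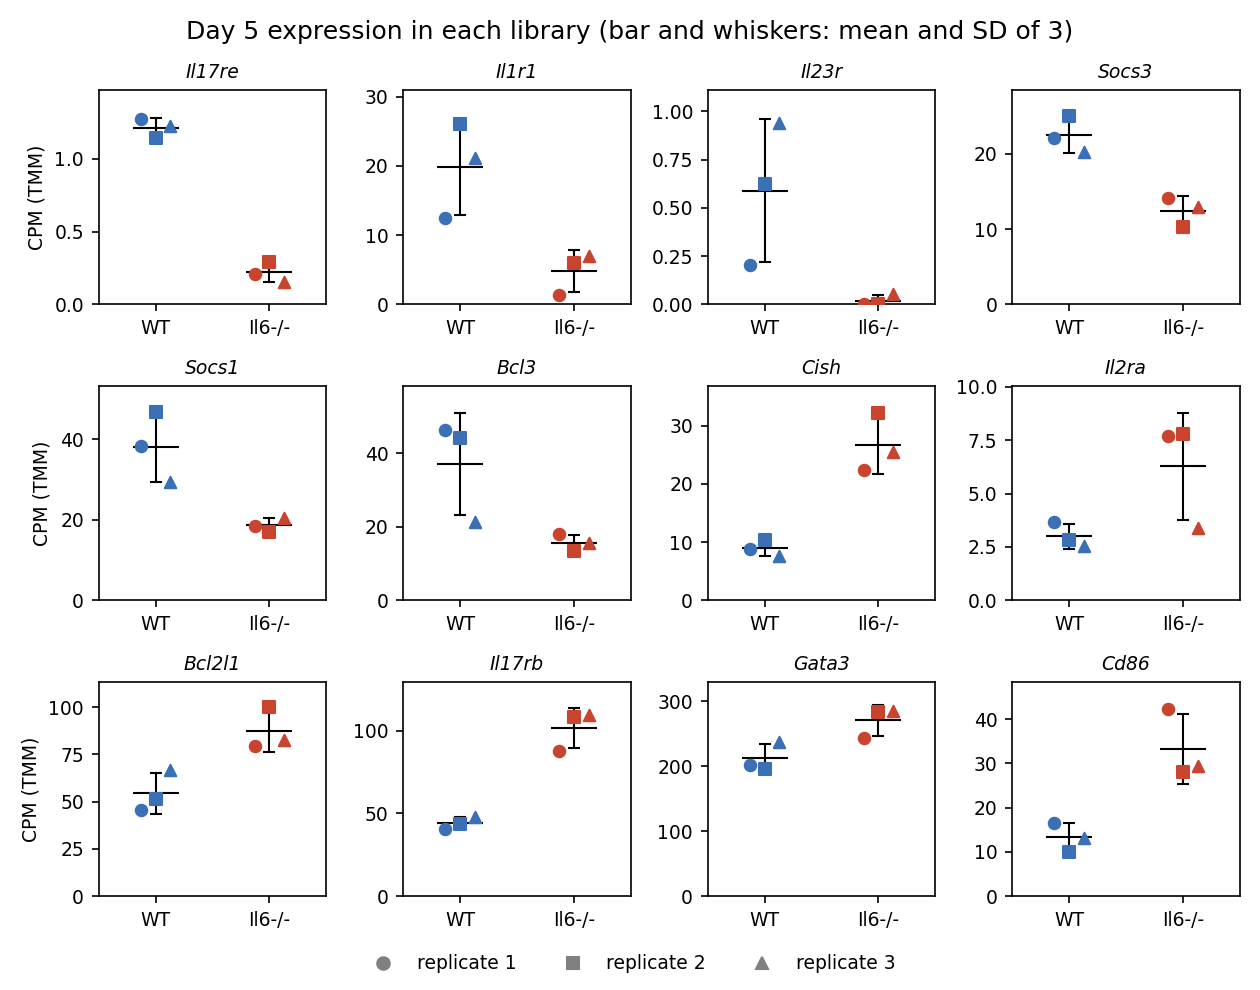
TMM-scaled CPM (y axes, each from 0) of 12 genes in each WT (blue) and Il6-/- (red) library on Day 5. Marker shapes give the replicate number and bars with whiskers the mean and SD of 3 libraries, and for Il2ra and for no other of these genes the groups overlap.

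As the plot of single genes by library shows, the WT spread was wide for Bcl3, Il1r1 and Il23r and narrow for Il17rb and Cish. Among Th2 genes, 3 of 11 tested members were higher (Il17rb, Gata3 and Ccr4) and none lower, with a median log2FC of 0.28. Of all genes tested, 1.27% were higher and 3.35% lower. Il17rb was at 40.7, 43.7 and 47.7 CPM (WT) and 87.9, 108 and 109 CPM (Il6-/-) (log2FC 1.21, SE 0.10, FDR = 3.4e-05), and no library of one genotype came near those of the other. It shares exon sequence with Actr8 and Chdh, and Chdh, which encodes choline dehydrogenase, was also called higher, at 38.4, 43.9 and 43.6 CPM (WT) and 72.4, 109.8 and 83.1 CPM (Il6-/-) (log2FC 1.07, SE 0.13, FDR = 0.00087). Gata3, the transcription factor that directs Th2 differentiation, was at 202, 196 and 238 CPM (WT) and 243, 284 and 285 CPM (Il6-/-) (log2FC 0.35, SE 0.09, FDR = 0.038). WT replicate 3 came close to Il6-/- replicate 1, and the call of Gata3 held in 4 of the 12 fits (FDR 0.050 to 0.15 with 1 library left out, namely WT replicates 1 and 2, Il6-/- replicates 2 and 3 or 4 of the 6 Day 3 libraries). Ccr4, a chemokine receptor of Th2 and skin-homing T cells, was at 59.5, 83.6 and 96.3 CPM (WT) and 93.0, 145 and 135 CPM (Il6-/-) (log2FC 0.64, FDR = 0.043). Its groups overlapped by WT replicate 3, and the call held in 3 of the 12 fits (FDR 0.051 to 0.18 with 1 library left out, namely WT replicates 1 and 2, Il6-/- replicates 2 and 3 or 5 of the 6 Day 3 libraries). Il4 was at 4.84, 8.94 and 4.70 CPM (WT) and 6.30, 12.3 and 23.5 CPM (Il6-/-) and did not pass the test (log2FC 1.19, FDR = 0.15, FDR = 0.073 with the replicate block). Il4 passed in 2 of 10 alternative fits. These were the 6 Day 5 libraries alone with the replicate block (FDR = 0.029) and the fit without a filter on low counts (FDR = 4.6e-06). Of the 12 fits that left out 1 library, it passed in 1, without Il6-/- replicate 1 (FDR = 0.033). The FDR was 0.52 without Il6-/- replicate 3. Its groups overlapped, and Il6-/- replicate 3 was the highest library. Il5 and Il13 had no counts in any Day 5 library, which allows up to the floor of 0.141 to 0.176 CPM.

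Few Th1, Tfh and regulatory T cell genes passed without the block, and more did with it. The same held over all genes tested, of which 1.27% were higher and 3.35% lower without the block. With it, these shares were 5.43% and 6.30%. Il12rb1 was the 1 higher member among 19 Th1 genes tested (median log2FC 0.22), and with the block 4 were higher, with Cxcr3, Cxcr6 and Tbx21 added, and 1 was lower (Ifngr1). Tbx21, which encodes T-bet, was at 3.51, 3.27 and 1.32 CPM (WT) and 4.55, 6.50 and 5.31 CPM (Il6-/-) and missed the threshold (log2FC 1.02, FDR = 0.061), but passed it with the replicate number as a block (FDR = 0.021). Ifng was at 3.00, 1.40 and 2.35 CPM (WT) and 6.93, 3.05 and 4.42 CPM (Il6-/-) (log2FC 1.09, FDR = 0.24). Of 24 Tfh genes tested, Tox2 and Batf were lower and none was higher (median −0.04). With the block, 4 were lower, with Izumo1r and Tcf7 added, and 2 were higher (Pdcd1 and Angptl2). Tox2, a transcription factor of Tfh cells, was at 81.2, 133 and 90.1 CPM (WT) and 47.3, 67.8 and 74.5 CPM (Il6-/-) (log2FC −0.68, SE 0.17, FDR = 0.036, FDR 0.050 to 0.15 with 1 library left out, namely WT replicate 2, Il6-/- replicates 1 and 2 or 4 of the 6 Day 3 libraries). Bcl6, the master regulator of Tfh cells, was at 71.3, 99.1 and 101 CPM (WT) and 66.2, 101 and 97.9 CPM (Il6-/-) (log2FC −0.04, FDR = 0.94), its target Cxcr5 at 165, 220.5 and 219 CPM (WT) and 165, 259.7 and 225 CPM (Il6-/-) (log2FC 0.10, FDR = 0.79), and the Tfh cytokine Il21 at 17.5, 50.5 and 41.4 CPM (WT) and 12.2, 41.4 and 50.4 CPM (Il6-/-) (log2FC −0.07, FDR = 0.94). These 3 genes had overlapping groups, and the sign of their log2FC turned when single libraries were left out. Pdcd1, which encodes PD-1, did not pass (log2FC 0.49, FDR = 0.085) but did with the replicate block (FDR = 0.00028).

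Of 16 regulatory T cell genes tested, Nrp1, Ebi3 and Entpd1 were higher and none was lower (median 0.28). Nrp1, a receptor for semaphorins and VEGF, was at 85.8, 78.1 and 112 CPM (WT) and 161, 152 and 220.3 CPM (Il6-/-) (log2FC 0.95, SE 0.20, FDR = 0.012, FDR 0.063 to 0.066 with 1 library left out, namely WT replicates 1 and 2 or Il6-/- replicate 3). Ebi3, a subunit of IL-27 and IL-35, was higher by 0.83 and Entpd1, the ectonucleotidase CD39, by 1.20 on the log2 scale (FDR = 0.029 and 0.048), and these calls held in 8 and 3 of the 12 fits. Foxp3, the defining transcription factor, was at 4.63, 1.92 and 1.97 CPM (WT) and 6.62, 3.98 and 3.44 CPM (Il6-/-) and did not pass without the block (log2FC 0.72, FDR = 0.29, FDR = 0.049 with the replicate block). With the block, 6 members were higher and 3 lower (Gpr83, Ikzf2 and Izumo1r).

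Several surface receptors were higher. Cd86, a ligand of CD28 and CTLA-4 that activated T cells can also carry, was at 16.6, 9.97 and 13.2 CPM (WT) and 42.3, 28.1 and 29.4 CPM (Il6-/-) (log2FC 1.33, SE 0.20, FDR = 0.0025). The lowest Il6-/- library exceeded the highest WT library. Tnfrsf1b, the TNF receptor TNFR2, was at 125, 135 and 130.0 CPM (WT) and 209, 245 and 201 CPM (Il6-/-) (log2FC 0.75, SE 0.10, FDR = 0.0011). In the TNF and TNF receptor superfamilies, Tnfrsf1b, Tnfrsf8 and Lta were higher and Tnfrsf25 (DR3, the receptor of TL1A) and Tnfrsf26 lower, among 19 tested. With the block, 5 were higher, with Tnfrsf4 and Tnfsf10 added, and 4 lower, with Cd27 and Fas added. Over all genes tested, 1.27% were higher and 3.35% lower without the block, and 5.43% and 6.30% with it. In the B7 and CD28 family and inhibitory receptors, Cd86, Entpd1 and Cd274 (PD-L1, log2FC 0.42, FDR = 0.040, called in 5 of the 12 fits) were higher and none lower among 19 tested, and the block added Pdcd1, Pdcd1lg2 and Tigit. Nkg7, a membrane protein of cytotoxic granules, was at 4.33, 6.03 and 4.61 CPM (WT) and 21.6, 22.8 and 12.4 CPM (Il6-/-) (log2FC 1.92, SE 0.27, FDR = 0.0022). Klrb1c, the receptor NK1.1, was lower, at 30.4, 32.3 and 36.5 CPM (WT) and 19.2, 23.1 and 23.3 CPM (Il6-/-) (log2FC −0.60, FDR = 0.050), and its call held in 3 of the 12 fits (FDR 0.058 to 0.14 with 1 library left out, namely WT replicates 1, 2 and 3, Il6-/- replicates 1, 2 and 3 or 3 of the 6 Day 3 libraries). Since the other natural killer markers named above were at 0, Klrb1c and Eomes made up nearly all of the summed level of that list, which was 33.9 to 38.4 CPM in WT and 24.8 to 26.4 CPM in Il6-/- libraries.

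The remaining genes with the lowest p values among those called higher were Smtn, Nrn1, Ticrr, St14 and Zbtb32. Smtn, the cytoskeletal protein smoothelin, was at 47.9, 46.9 and 64.4 CPM (WT) and 119, 285 and 232 CPM (Il6-/-) (log2FC 2.00, SE 0.24, FDR = 0.00087). It shares exon sequence with Gm11946, which was also called higher, and with Selenom. Zbtb32, a zinc finger repressor of cytokine genes, was at 4.02, 8.78 and 13.8 CPM (WT) and 21.0, 41.4 and 32.0 CPM (Il6-/-) (log2FC 1.81, SE 0.30, FDR = 0.0039). The Il6-/- libraries of Zbtb32 all exceeded the WT libraries, while both groups had their lowest value in replicate 1. Ticrr, which is needed to load CDC45 onto replication origins, was at 4.84, 7.43 and 7.95 CPM (WT) and 11.3, 17.6 and 15.9 CPM (Il6-/-) (log2FC 1.15, FDR = 0.0033), and St14, the membrane serine protease matriptase, at 7.79, 9.71 and 8.89 CPM (WT) and 15.1, 25.0 and 15.4 CPM (Il6-/-) (log2FC 1.07, FDR = 0.0035). Nrn1, the GPI-anchored protein neuritin, was at 8.50, 8.05 and 6.96 CPM (WT) and 23.3, 27.7 and 17.0 CPM (Il6-/-) (log2FC 1.53, FDR = 0.0025). The FDR of these 5 genes stayed under 0.05 in each of the 12 fits. The largest fitted increase was that of Erg, an ETS family transcription factor, with 1 count over the WT libraries and 41 over the Il6-/- libraries (ratio 44.7, 95% interval 7.59 to 1808, exact, for counting error only, FDR = 0.0077). It was at 0.688, 0.703 and 0.833 CPM in the Il6-/- libraries, so it remained close to the floor, and FDR 0.051 to 0.056 with 1 library left out, namely WT replicates 1 and 2.

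The remaining genes with the lowest p values among those called lower are known from varied cell functions. Tesc, the calcium-binding protein tescalcin, was at 152, 159.7 and 108 CPM (WT) and 48.4, 47.6 and 53.6 CPM (Il6-/-) (log2FC −1.49, SE 0.15, FDR = 0.00023). Cry1, a repressor of the circadian clock, was at 24.5 ± 6.89 CPM (WT) and 10.5 ± 0.745 CPM (Il6-/-) (SD, n = 3, log2FC −1.22, SE 0.18, FDR = 0.0025), and with Arntl, the clock activator BMAL1 (log2FC −0.43, FDR = 0.041, called in 3 of the 12 fits), it was 1 of 2 lower members among 12 clock genes tested. Xpa, a DNA damage recognition protein, was at 27.0, 25.0 and 18.2 CPM (WT) and 10.7, 9.79 and 9.73 CPM (Il6-/-) (log2FC −1.21, FDR = 0.00091). For Cry1 and Tesc, WT replicate 3 was the lowest of WT and still above all Il6-/- libraries. The same was seen for Pitpna, the phosphatidylinositol transfer protein, at 282, 301 and 168 CPM (WT) and 108, 121 and 116 CPM (Il6-/-) (log2FC −1.12, FDR = 0.0023), and for Ptges2, a prostaglandin E synthase, at 31.6, 32.6 and 19.9 CPM (WT) and 12.3, 11.6 and 9.79 CPM (Il6-/-) (log2FC −1.32, FDR = 0.0022). Usp30, a deubiquitinase of the mitochondrial outer membrane, had a log2FC of −1.14 (FDR = 0.0018) and Rnf166, a ubiquitin ligase, of −1.20 (FDR = 0.0022). Matk, a kinase that inhibits Src family kinases, and the unannotated E130309D02Rik fell by 1.05 and 1.19 on the log2 scale (FDR = 0.0025 for each). Each of these genes kept an FDR under 0.05 in the 12 fits. Xpa, Usp30, Rnf166, Matk and Pitpna share exon sequence with a neighboring gene, and Tesc, Cry1 and Ptges2 do not.

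Cell cycle genes varied with the replicate number within each genotype, and with genotype within each number. The 24 tested genes of G2/M and mitosis summed to 647, 1165 and 1147 CPM in WT replicates 1, 2 and 3 and to 949, 2154 and 1496 CPM in Il6-/- replicates 1, 2 and 3. The groups overlapped, because Il6-/- replicate 1 lay below WT replicates 2 and 3. Within each number the Il6-/- library was higher, by a median log2 difference over the genes of 0.69, 0.96 and 0.43, and for 24 of 24 genes in each. Without the block, no member passed the test in edgeR (log2FC 0.13 to 0.97, median 0.71). In the higher direction, 22 of the 24 had an unadjusted p under 0.05, as did 1285 of all 13570 genes tested. The members varied together with the replicate number, so these p-values are not independent of each other. All 24 had a log2FC above 0, as did 51.7% of all genes tested. With the block, 23 of the 24 passed, all but Cenpa, against 5.43% of all genes in that direction. Mki67, which encodes the proliferation marker Ki-67, was at 42.8, 84.4 and 67.9 CPM (WT) and 61.8, 147 and 108 CPM (Il6-/-) (log2FC 0.70, FDR = 0.12, and FDR = 9.9e-05 with the block). DESeq2 without the block called 5 of the 24.

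The 28 genes of G1/S and DNA replication behaved alike, with sums of 1260, 1837 and 1716 CPM in WT and 1681, 3128 and 2314 CPM in Il6-/- replicates 1, 2 and 3. The median difference within the numbers was 0.44, 0.71 and 0.43 on the log2 scale. Cdc6, which loads the MCM helicase, Pola1, the catalytic subunit of DNA polymerase α, and Lig1, the replicative DNA ligase, were higher without the block. Cdc6 was at 5.85, 13.7 and 11.8 CPM (WT) and 14.8, 30.5 and 22.2 CPM (Il6-/-) (log2FC 1.11, FDR = 0.021), with its Il6-/- replicate 1 just above WT replicate 2. Pola1 and Lig1 had log2FC of 0.89 and 0.85 (FDR = 0.018 and 0.022), and all 3 calls were lost in 2 or 3 of the 12 fits, with FDR up to 0.11. With the block, 22 members were higher, among them the MCM helicase subunits Mcm2 to Mcm7, and Ccne1 (cyclin E1) was lower. These counts without the block depended on single libraries, from 0 members without WT replicate 1 to 22 without Il6-/- replicate 1 for G1/S, and from 0 to 22 without Il6-/- replicate 1 for G2/M. The median log2FC of G2/M genes ranged from 0.41 (without Il6-/- replicate 2) to 1.00 (without Il6-/- replicate 1). Whether the numbers stand for a shared day of sorting or another shared step is not given in the sources used here.

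**Figure D3:**
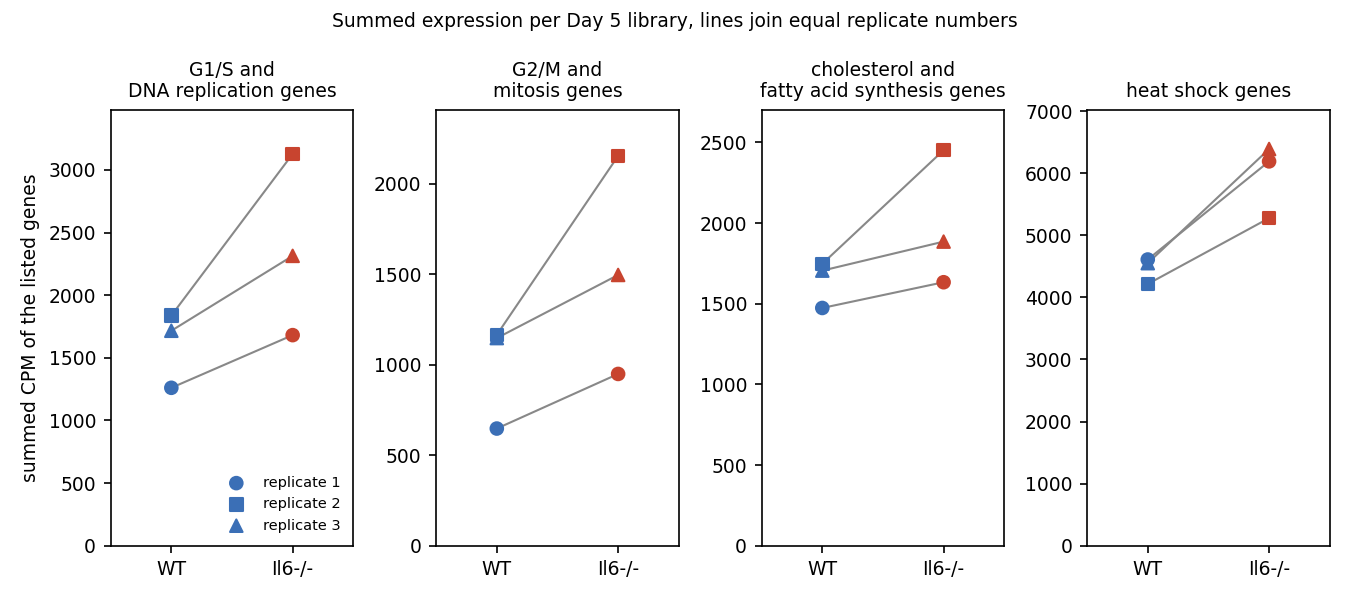
Summed TMM-scaled CPM (y axes, from 0) of 4 gene lists in each Day 5 library, WT on the left and Il6-/- on the right of each panel, with lines joining libraries of equal replicate number. Each of the 12 lines rises from WT to Il6-/-, while for the 2 cell cycle lists and for cholesterol and fatty acid synthesis the groups overlap, and for heat shock genes they do not.

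The plot of summed lists shows heat shock and lipid synthesis genes beside both cell cycle lists. Heat shock genes, whose products fold proteins, summed to 4610, 4215 and 4550 CPM in WT and 6190, 5277 and 6389 CPM in Il6-/- libraries. Of 17 tested, 16 had a log2FC above 0 (median 0.25), and Hspa1a, Dnajb1 and Hsp90ab1 were higher without the block. Hspa1a, an inducible HSP70, was at 21.6, 3.84 and 15.3 CPM (WT) and 232, 32.4 and 186 CPM (Il6-/-) (log2FC 3.46, SE 0.94, FDR = 0.048). Replicate 2 was far below the other replicates in both genotypes, and the groups still did not overlap. Hspa1a and Hspa1b are near-identical copies whose reads may be split between them, and Hspa1b was not past the threshold without the block (log2FC 2.84, FDR = 0.089). The calls of Hspa1a, Dnajb1 and Hsp90ab1 held in 4, 3 and 5 of the 12 fits, and without WT replicate 2 the FDR of Hspa1a was 0.15. With the block, 9 members were higher and none lower, against 5.43% and 6.30% of all genes tested. Of 29 genes of cholesterol and fatty acid synthesis, 28 had a log2FC above 0 (median 0.26). Scd2, a stearoyl-CoA desaturase, was the 1 member higher without the block (log2FC 0.53, FDR = 0.048, called in 2 of the 12 fits). With it, 13 were higher, among them Idi1, Lss, Cyp51 and Sqle, and Elovl6 was lower. Glycolysis genes summed to 6042, 7182 and 7320 CPM in WT and to 6642, 9093 and 8106 CPM in Il6-/- libraries. Eno1, the glycolytic enolase, was higher (log2FC 0.36, FDR = 0.028) and Pdk1, which keeps pyruvate from the mitochondria, lower (log2FC −0.56, FDR = 0.028) without the block. The calls of Eno1 and Pdk1 held in 8 and 9 of the 12 fits, with the highest FDR, 0.13 and 0.14, without WT replicate 1. The block added the higher Aldoa, Gapdh, Ldha, Pgk1, Pkm and Tpi1.

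**Figure D4:**
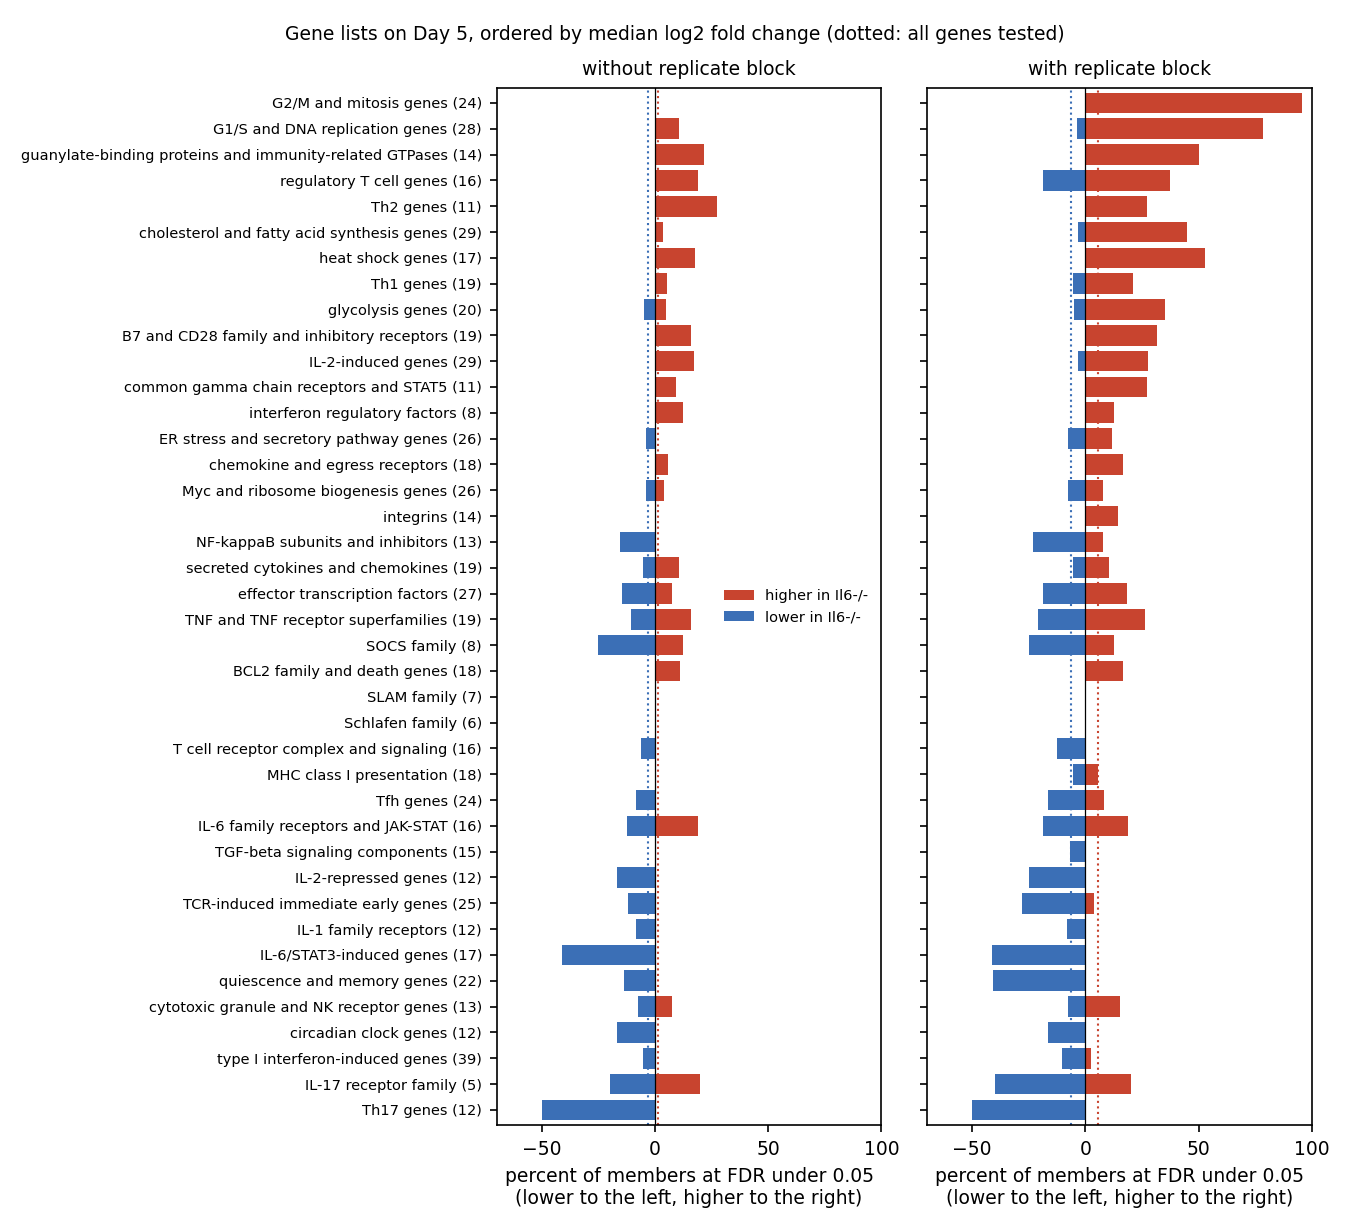
Percent of the tested members of 40 gene lists at an FDR under 0.05 on Day 5 (x axes, lower to the left, higher to the right), without (left panel) and with (right panel) the replicate number as a block. List sizes stand in parentheses, dotted lines give all genes tested (1.27% and 3.35% without, 5.43% and 6.30% with the block), and the cell cycle lists differ most between the panels while 6 of 12 Th17 genes are lower in both.

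In the plot of lists without and with the block, the lists of cell cycle genes, at the top, gain the largest shares of calls with the block. The block raised the genes at an FDR under 0.05 from 626 (4.61%) to 1592 (11.7%) over all genes tested, so a gain by itself is shared with other genes. Genes of quiescence and memory were lower in 3 of 22 and, with the block, in 9, and none was higher in either fit (median −0.18). Btg1, an antiproliferative factor of resting lymphocytes, was at 1028, 802 and 585 CPM (WT) and 465, 229 and 322 CPM (Il6-/-) (log2FC −1.25, SE 0.22, FDR = 0.0052). Its WT replicate 3 lay closest to the Il6-/- libraries, of which replicate 1 was the highest. Satb1, a chromatin organizer of T cells, was at 259.9, 218 and 187 CPM (WT) and 151, 108 and 112 CPM (Il6-/-) (log2FC −0.84, SE 0.14, FDR = 0.0044), and Foxo1, which keeps naive T cells quiescent, had a log2FC of −0.35 (FDR = 0.029, FDR 0.097 to 0.15 with 1 library left out, namely WT replicates 1 and 2 or Il6-/- replicates 2 and 3). The block added Bach2, Cdkn1b, Klf3, Pik3ip1, Tcf7 and Tob1. Ccr7, S1pr1, Klf2 and Il7r passed in neither fit.

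Among immediate early genes, which TCR signals induce within a short time, Egr1, Egr3 and Dusp2 were lower and none was higher of 25 tested (median −0.15). Dusp2, a phosphatase of MAP kinases, had a log2FC of −0.64 (FDR = 0.0052), and the transcription factors Egr1 and Egr3 of −0.58 and −0.52 (FDR = 0.011 and 0.033). Dusp2 kept an FDR under 0.05 in the 12 fits, and Egr1 and Egr3 in 10 and 8. With the block, 7 were lower, with Egr2, Dusp1, Dusp6 and Nfkbia added, and Dusp4 was higher. Over all genes tested, 3.35% were lower and 1.27% higher without the block, against 6.30% and 5.43% with it. Relb and Bcl3 were the lower members among 13 NF-κB subunits and inhibitors, to which the block added Nfkbia and a higher Nfkb2, Relb with a log2FC of −0.50 (FDR = 0.018, FDR 0.064 to 0.099 with 1 library left out, namely WT replicates 1 and 2 or Il6-/- replicates 2 and 3). Cd3d, a chain of the TCR complex, was lower by a log2FC of −0.37 (FDR = 0.037, called in 4 of the 12 fits), and 15 of the 16 genes of the TCR complex and its signaling did not pass, whereas Cd3g was also lower with the block. Id2, which restrains E proteins in effector cells, fell by 0.70 on the log2 scale (FDR = 0.011, FDR 0.056 to 0.062 with 1 library left out, namely WT replicate 1 or Il6-/- replicates 2 and 3).

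Interferon-induced genes did not move together. Of 39 type I interferon-induced genes tested, 29 had a log2FC below 0 (median −0.23), and Oas1a and Rtp4 were lower at an FDR of 0.037 and 0.047, in 5 and 4 of the 12 fits. With the block, 4 were lower, with Ifi27l2a and Ly6a added, and 1 was higher (Oas3). Over all genes tested, 3.35% were lower and 1.27% higher without the block, and 6.30% and 5.43% with it. A log2FC above 0 was found for 51.7% of all genes tested. Isg15, a ubiquitin-like effector, was at 41.4, 41.1 and 44.3 CPM (WT) and 37.4, 31.3 and 30.7 CPM (Il6-/-) (log2FC −0.35, FDR = 0.20), and Irf7, the amplifier of type I interferon, at 91.6, 89.8 and 85.7 CPM (WT) and 76.8, 79.5 and 70.9 CPM (Il6-/-) (log2FC −0.23, FDR = 0.27). In contrast, 13 of 14 guanylate-binding proteins and immunity-related GTPases, which interferon-γ induces, had a log2FC above 0 (median 0.31), with Gbp2, Gbp3 and Tgtp1 higher, and 7 higher with the block. Gbp2 was at 25.9, 26.7 and 27.4 CPM (WT) and 36.4, 39.7 and 35.9 CPM (Il6-/-) (log2FC 0.48, SE 0.09, FDR = 0.0091). Gbp2 was called in each of the 12 fits, and Gbp3 (1.00) and Tgtp1 (1.01) in 3 and 2. Members of these families are near-identical in parts, and Tgtp1 and Tgtp2 in particular may share reads. Irf8, an interferon regulatory factor, was at 28.0, 35.5 and 40.1 CPM (WT) and 58.2, 66.9 and 67.9 CPM (Il6-/-) (log2FC 0.90, SE 0.13, FDR = 0.0025) and was the 1 member of 8 of its family that passed. No MHC class I presentation gene of 18 passed in edgeR without the block, while 3 had an unadjusted p under 0.05 and DESeq2 called 1. Of all 13570 genes tested, 1285 were higher and 1405 lower at that unadjusted p. With the block, Tap1 was higher and B2m lower.

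Among 27 effector transcription factors, Gata3 and Zbtb32 were higher and 4 were lower, including Batf, Id2 and Tox2. With the block, 5 were higher, with Bhlhe40, Foxp3 and Tbx21 added, and 5 lower, with Ikzf2 added. For this list and those that follow, the shares over all genes tested were 1.27% higher and 3.35% lower without the block. With it they were 5.43% and 6.30%. Of 19 secreted cytokines and chemokines tested, Lta and Ebi3 were higher and Il22 was lower in both fits. Il2rb was the 1 higher member of 11 γc receptors and STAT5 genes, and the block added Il2ra and Il9r. Of 5 IL-17 receptor genes, Il17rb was higher and Il17re lower, and the block added a lower Il17ra. The lists not yet described held between 0 and 2 members that passed without the block. Bid, which links death receptors to mitochondria, was higher with Bcl2l1 among 18 BCL2 family and death genes (log2FC 0.65, FDR = 0.0052). In Myc and ribosome biogenesis, Nop2, an rRNA methyltransferase, was higher (log2FC 0.41, FDR = 0.041) and Srm, the spermidine synthase, lower (log2FC −0.91, FDR = 0.035), out of 26. The calls of Nop2 and Srm held in 3 and 6 of the 12 fits, and the block added a higher Cad and a lower Odc1. Edem1, which targets misfolded glycoproteins for degradation, was the 1 lower member of 26 ER stress and secretory genes (log2FC −0.81, FDR = 0.0025), and the block added a lower Dnajc3 and the higher Atf4, Canx and Hsp90b1. Among 18 chemokine and egress receptors Ccr4 alone was higher without the block, which added Cxcr3 and Cxcr6, and among 12 IL-1 family receptors and adaptors Il1r1 alone was lower. None of 14 integrins, 15 TGF-β signaling components, 7 SLAM family and 6 Schlafen genes passed in edgeR without the block. Of these 3, 4, 1 and 1 had an unadjusted p under 0.05, and DESeq2 called 1 integrin, 1 TGF-β component and none of the others. At that unadjusted p, 1285 of all 13570 genes tested were higher and 1405 lower. The block made Itga4 and Itgb1 higher and Smad3 lower. The mitochondrial rRNAs mt-Rnr1 and mt-Rnr2 had log2FC of −0.50 and −0.30 and passed only with the block (FDR = 0.038 and 0.0064), with the lowest levels in Il6-/- replicate 2.

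The Day 5 difference was compared with the Day 3 difference by an interaction term, taken as Day 5 minus Day 3. Of all genes tested, 668 (4.92%) passed an FDR of 0.05, and of the 155 genes called on Day 5, 12 of the 44 higher and 48 of the 111 lower genes did. The count of 668 fell to between 235 and 313 without WT Day 3 replicate 2 or 3, WT Day 5 replicate 1 or 2, or Il6-/- Day 3 replicate 1 or 2, and rose to 1564 with the replicate block. The block also pairs the Day 3 libraries, whose deviations correlated by at most 0.060 for equal numbers. The 155 genes were chosen by their Day 5 values, which enter the interaction too. On Day 3 alone, 1861 genes (13.7%) passed an FDR of 0.05, among them 17 of the 44 and 22 of the 111 with the same sign and 2 of the 44 with the opposite sign. Relative to their mean over all Day 3 libraries, the genes called higher stood at a median of −1.72 in WT and 0.12 in Il6-/- libraries on the log2 scale on Day 5. The genes called lower stood at 0.11 in WT and −1.19 in Il6-/- libraries. These medians do not hold for each gene, as the values of Il17rb on both days show.

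**Figure D5:**
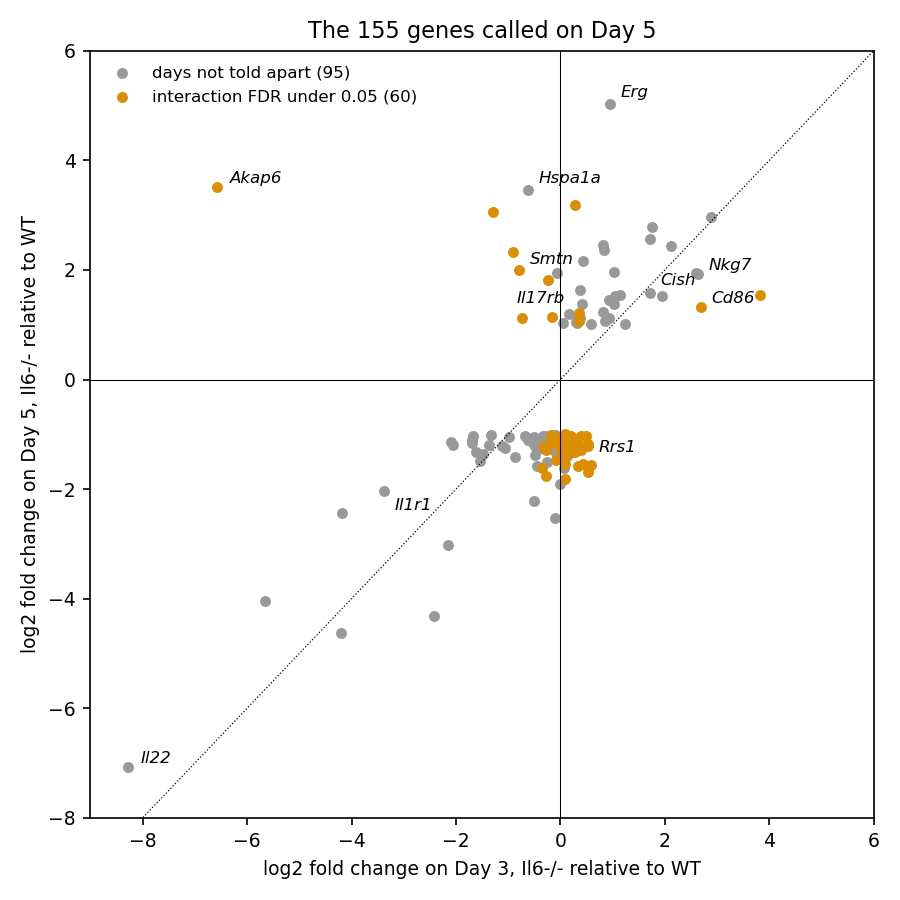
Log2 fold change (Il6-/- relative to WT) on Day 3 (x axis) and Day 5 (y axis) for the 155 genes called on Day 5, with equal changes on the dotted line. The 60 genes with an interaction FDR under 0.05 are orange, and most genes called lower on Day 5 lie near 0 on Day 3.

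As the plot of both days shows, the Th17 genes Il1r1 and Il22 lay far below 0 on each day. Il1r1 had a log2FC of −3.37 on Day 3, and its interaction did not pass (interaction 1.33, SE 0.53, FDR = 0.17) but did with the replicate block (FDR = 0.023). Cish was likewise higher on both days (1.71 on Day 3, interaction −0.13, SE 0.24, FDR = 0.82). Socs3 differed less on Day 5 than on Day 3, when it was at 13.3, 15.8 and 19.9 CPM (WT) and 3.43, 2.60 and 3.60 CPM (Il6-/-) (interaction 1.48, SE 0.26, FDR = 0.0081). The Tfh genes Il21, Cxcr5 and Tox2 were closer between genotypes on Day 5. Il21 was at 26.5, 26.2 and 27.8 CPM (WT) and 3.70, 3.82 and 3.89 CPM (Il6-/-) on Day 3, where the groups were far apart, and its interaction was 2.74 (FDR = 0.018). Cxcr5 was at 149, 161 and 177 CPM (WT) and 47.7, 67.7 and 63.1 CPM (Il6-/-) on Day 3, with an interaction of 1.55 (FDR = 0.0035).

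Other genes had a larger or an opposite difference on Day 5. Il17rb was at 41.6, 40.9 and 39.1 CPM (WT) and 51.4, 50.3 and 54.2 CPM (Il6-/-) on Day 3, so the difference grew (interaction 0.85, SE 0.14, FDR = 0.0050). Smtn was lower in Il6-/- recipients on Day 3, at 255, 194 and 211 CPM (WT) and 105, 125 and 151 CPM (Il6-/-), and higher on Day 5 (interaction 2.79, SE 0.34, FDR = 0.0013). Klrb1c was higher on Day 3, at 5.58, 5.14 and 3.75 CPM (WT) and 18.2, 26.4 and 18.2 CPM (Il6-/-), and lower on Day 5 (interaction −2.70, SE 0.24, FDR = 0.00017). Srm was higher on Day 3, at 107, 71.4 and 66.3 CPM (WT) and 202, 172 and 145 CPM (Il6-/-), and lower on Day 5 (interaction −1.99, SE 0.31, FDR = 0.0043). Akap6, an anchoring protein of protein kinase A, was at 0.507, 0.791 and 0.489 CPM (WT) and 0, 0 and 0 CPM (Il6-/-) on Day 3 and at 0.153, 0 and 0.188 CPM (WT) and 0.741, 1.11 and 2.29 CPM (Il6-/-) on Day 5, so the genotypes changed order close to the floor (interaction FDR = 0.0050).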

How the data were processed

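OTII cells were profiled in 12 libraries (4 groups of 3), of which the 6 of Day 5 are compared here and the 6 of Day 3 share the fit. Libraries were made from ultra-low input poly(A) RNA. Per the labels and the study's methods, Trim Galore 0.4.4 was used by the authors for trimming, STAR 2.5.2a for alignment to GRCm39 and HTSeq 0.6.1p1 for unstranded counting per gene. From their deposited files, raw counts were used for 40840 gene symbols, which are neither scaled nor pooled. The lines for reads outside genes (15.2% to 17.3% of the reads of a Day 5 library), ambiguous (1.96% to 2.12%) and not unique (25.5% to 28.2%) were left out of library sizes. The table of log2 CPM that the authors deposited for the whole series was not used here.

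The analysis used edgeR 4.0.16 under R 4.3.3. The filter filterByExpr over the 4 groups left 13570 genes, libraries were scaled by TMM, and 1 quasi-likelihood model with a coefficient per group gave the Day 5 contrast and the interaction (8 residual degrees of freedom, median biological coefficient of variation 0.132). The FDR is that of Benjamini and Hochberg over all genes tested, genes were called at an FDR under 0.05 and at least 2-fold, and list members were counted at an FDR under 0.05. An exact permutation test of a single gene, two-sided, cannot go below p = 0.1 with 3 against 3, since there are 20 labelings. Counting intervals are exact at 95%, and a fold against a group at 0 was taken against 3 counts per library. Pearson correlations of the deviations from the group means were 0.24, 0.21 and 0.13 for Day 5 libraries of equal replicate number and −0.18 to −0.03 for the others. Each was above 0.1 for equal numbers on Day 5, so a pairing by number was considered. On Day 3 the correlations were 0.033, 0.060 and 0.032 for equal numbers, all under 0.1, and −0.068 to 0.031 for the others. The block was fitted within both days, so its interaction results use a Day 3 pairing that these Day 3 values do not back. The main fit, with its SE and FDR values, and the fits that left out 1 library do not use this pairing. The fit with the replicate block (4 residual degrees of freedom) does, and it is given beside most results whose call it changes or whose count it moves by more than 1.5 times. The pairing rests on the Day 5 correlations, since the labels do not say what a number marks. No pair of Day 5 replicates agreed within sampling noise (chi-square per degree of freedom 14.0 to 29.7).

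Genes named in the text were the 10 with the smallest p in each direction among genes called with non-overlapping groups, the largest change in each direction, up to 4 passing members per list, a set of cytokine, receptor and lineage genes whatever their values, and the 5 called genes with the smallest interaction p. Some genes that these rules or the lists hold are not reported here by name. Other genes were named after their values were seen. The members and lists were chosen with earlier results of these data known. Gene positions, GC contents and exon overlaps came from GENCODE vM39 on GRCm39, which gave a GC content for 92.8% of genes tested. Promoter windows came from RefSeq on GRCm38.p6, and of the SOCS windows only the motif sites are printed, because the windows lie within exons of the annotation on GRCm39. The alternatives were RLE (as in DESeq2 1.42.0) or no scaling, other filters on low counts, DESeq2, the 6 Day 5 libraries alone, the replicate block, an offset for GC content, other fold limits and the omission of each library in turn. The fits were tested on simulated data with known fold changes and no variation shared by replicate number. Such data cannot judge the use of the block.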

Additional observations from a re-analysis of the deposited data

Results flagged for a closer look

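The following genes were singled out because the change between genotypes differed between both days in edgeR (interaction FDR under 0.05, Day 5 minus Day 3, log2 scale, 3 libraries per group). They are the genes chosen by the naming rules that pass this test, and their number was not set against chance.

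In 1 set, the Il6-/- libraries were lower on Day 3 and the difference was smaller, absent or opposite on Day 5. The interaction was 2.74 for Il21, 1.55 for Cxcr5, 1.12 for Bcl6, 1.52 for Tox2, 1.48 for Socs3, 1.30 for Irf7 and 1.02 for Tnfrsf25. It was 2.79 for Smtn and 10.09 for Akap6, both higher on Day 5, and the fitted value of Akap6 rests on Il6-/- libraries at 0 on Day 3 and is no bound.

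Another set was higher in Il6-/- libraries on Day 5 and differed less on Day 3. The interaction was 0.85 for Il17rb, 0.72 for Chdh, 0.86 for Ccr4, 1.30 for Ticrr and 2.06 for Zbtb32. Il17rb and Chdh share exon sequence.

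Genes with a negative interaction were Klrb1c (−2.70) and Srm (−1.99), which were higher in Il6-/- libraries on Day 3 and lower on Day 5, and Rrs1 (−1.75), which did not pass on Day 3 (log2FC 0.53, FDR = 0.067) and was lower on Day 5. Genes whose Day 3 log2FC was smaller in size or of the other sign than their lower level on Day 5 were Ptges2 (−1.60), Usp30 (−1.33), E130309D02Rik (−1.32), Pitpna (−1.10), Id2 (−0.98), Xpa (−0.90), Dusp2 (−0.90) and Relb (−0.65). Cd86 (−1.36) and Lta (−0.68) were higher in Il6-/- libraries on both days, by less on Day 5.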

How the results depend on the processing

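The counts of 155 genes called, 44 higher and 111 lower, and of 668 genes with an interaction stayed within 1.5 times under RLE scaling, no scaling and a filter of 1 CPM, with 145 to 157 genes called. Without a filter on low counts 259 genes were called, 109 of them higher, and 1300 had an interaction. DESeq2 called 74 higher and gave 1136 interactions, the 6 Day 5 libraries alone 29 higher, the same with the replicate block 82 higher, the block with all libraries 90 higher and 1564 interactions, and the block with the GC offset 98 higher. Without a fold limit 626 genes passed, 172 higher and 454 lower. Against a 2-fold change, 1 gene passed, 0 higher and 1 lower. Leaving out 1 library gave 73 to 299 genes called, 15 to 155 higher and 50 to 216 lower, and 235 to 943 interactions. Apart from fewer libraries, the cause of these differences was not tested. Of the 96 named genes tested, 79 passed an FDR of 0.05, and 31 of these did so in all 12 fits that left out 1 library. None of the 79 changed sign in any alternative. The replicate block raised 5 named genes past the threshold and lost none. In the 6 Day 5 libraries alone, 94 named genes were tested, and 28 of them no longer passed. With the replicate block in those libraries, none was lost and 6 were raised past the threshold. Signs turned for genes near 0, namely Bcl6 without scaling (0.0087) and Stat3 in the 6 Day 5 libraries alone (−0.0069, and −0.0084 there with the replicate block). Over the fits without 1 library, log2FC ranged from −0.181 to 0.135 for Bcl6, −0.0243 to 0.265 for Cxcr5, −0.448 to 0.332 for Il21, −0.208 to 0.0503 for Il6st, −0.0218 to 0.239 for Il7r and −0.0277 to 0.0521 for Stat3. Genes under about 0.18 CPM, such as Il17a, Il5 and Il13, are beyond the depth of these libraries.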

Other observations

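Some genes called on Day 5 belong to no list and are named here after their values were seen, with no theme attached. Higher in cells from Il6-/- recipients were Anxa2, a calcium-dependent membrane-binding protein, at 81.2 ± 20.3 CPM (WT) and 177 ± 70.7 CPM (Il6-/-) (SD, n = 3 as for all values here, log2FC 1.12, SE 0.25, FDR = 0.019), and Plac8, a small cysteine-rich protein of lymphocytes, at 0.915 ± 0.495 CPM (WT) and 7.11 ± 4.34 CPM (Il6-/-) (log2FC 2.96, SE 0.56, FDR = 0.0077). Lgals3, which encodes galectin-3, was at 1.35 ± 0.168 CPM (WT) and 3.51 ± 0.441 CPM (Il6-/-) (log2FC 1.38, SE 0.36, FDR = 0.040), and S1pr3, a receptor for sphingosine-1-phosphate, at 1.21 ± 0.351 CPM (WT) and 3.50 ± 1.87 CPM (Il6-/-) (log2FC 1.54, SE 0.40, FDR = 0.038). Exo1, an exonuclease of mismatch repair, was at 2.29 ± 0.900 CPM (WT) and 7.15 ± 4.24 CPM (Il6-/-) (log2FC 1.64, SE 0.36, FDR = 0.018).

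Lower were Kcna3, the Kv1.3 potassium channel of effector memory T cells, at 24.6 ± 9.75 CPM (WT) and 10.6 ± 1.61 CPM (Il6-/-) (log2FC −1.21, SE 0.27, FDR = 0.019), and Peli1, a ubiquitin ligase that restrains T cell activation, at 154 ± 47.2 CPM (WT) and 62.9 ± 11.7 CPM (Il6-/-) (log2FC −1.29, SE 0.19, FDR = 0.0025). Vipr1, a receptor for vasoactive intestinal peptide, was at 26.5 ± 5.94 CPM (WT) and 10.3 ± 3.28 CPM (Il6-/-) (log2FC −1.36, SE 0.24, FDR = 0.0050), Smad1, a transducer of BMP signals, at 15.0 ± 4.47 CPM (WT) and 7.23 ± 0.465 CPM (Il6-/-) (log2FC −1.06, SE 0.20, FDR = 0.0089), and Pink1, a kinase that marks damaged mitochondria, at 89.5 ± 14.6 CPM (WT) and 41.5 ± 9.22 CPM (Il6-/-) (log2FC −1.10, SE 0.17, FDR = 0.0028). These calls rest on the edgeR fit of the 12 libraries and were not examined further.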
